A study of Mus musculus with 6 samples.

Results

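The genes described here are 9 genes that tell phagocytes and T cells whether to act on a cell. They were chosen by name as do-not-eat-me signals (Cd47, its receptor Sirpa, and Cd24a), checkpoint ligands (Cd274, Pdcd1lg2, Cd200 and Lgals9) and costimulators (Cd80 and Cd86). All 9 were among the 16440 genes of the deposited table. The data were RNA sequencing of 3 libraries of normal myeloid progenitors (MPs) and 3 libraries of c-Kit+ acute promyelocytic leukemia (APL) progenitors. The gate for normal MPs from mouse bone marrow (BM) was Lin-Sca-1-c-Kit+, which takes in granulocytic, monocytic, megakaryocytic and erythroid progenitors. The APL cells arose in transgenic mice that carry PML/RARα, the fusion oncoprotein of this leukemia, under the hMRP8 promoter, which is active in myeloid cells. They had been labeled with GFP by the retroviral vector MigR1, were grown in syngeneic recipients and were sorted for c-Kit. Both groups were of the FVB N/J strain, and the transplant recipients were 6 to 10 weeks old. The age of the MP donors is not given in the sources used here. The libraries are described as biological replicates, but the sources used here do not say whether each came from a mouse of its own or from how many primary leukemias the APL cells were drawn. The p-values below therefore measure only the spread between these libraries.

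CD47 on a target cell binds SIRPA on a macrophage, and the phosphatases that SIRPA recruits hold back engulfment. CD24 does the same through an inhibitory sialic acid receptor, which is SIGLEC-G in the mouse. PD-L1, encoded by Cd274, and PD-L2, encoded by Pdcd1lg2, bind the T cell receptor PD-1 and dampen T cell responses. CD200 acts on myeloid cells that carry its receptor CD200R. Galectin-9, the product of Lgals9, binds sugar chains on several receptors, among them the T cell receptor TIM3. CD80 and CD86, found mainly on antigen-presenting cells, costimulate T cells through CD28 and restrain them through CTLA4. Leukemia cells are known to use CD47 to escape macrophages.

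The deposited table gives each gene an FPKM value, a level normalised to transcript length and sequencing depth, and an estimated number of fragments adjusted for differences between libraries (scaled fragments). Levels of different genes are compared below in FPKM, since it accounts for transcript length, and groups are compared in scaled fragments. Total fragments before scaling lay between 20608715 and 28382785 per library. Normal MP library 3 stood apart from the others of its group. Its median absolute log2 difference from MP libraries 1 and 2 was 0.21 for each, against 0.079 between those libraries. It also had the highest value of its group for 7 of the 9 genes, so values without it are given where they change a result. Medians over all genes of a chromosome lay between −0.23 and −0.059 on the log2 scale, except for chromosome 8 (0.48) and chromosome 15 (0.46). None of the 9 genes lies on chromosome 8 or 15.

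Relative to normal MPs, the c-Kit+ APL progenitors had more Sirpa and Cd274 and less Cd24a, Lgals9, Cd86, Pdcd1lg2 and Cd200. Cd47 and Cd80 were not called. A gene was called when its fold change was over 1.5 and its p-value, from limma with Benjamini-Hochberg adjustment over the 14595 genes tested, was under 0.05. By that rule 21.7% of all genes tested were called higher and 24.4% lower, so calls were common in this comparison. Of the 9 genes, 2 (22.2%) were called higher and 5 (55.6%) lower. Their median log2 fold change was −1.34, against −0.10 over all genes tested. All libraries of 1 group lay above all of the other for 7 of the 9 genes (77.8%) and for 70.9% of all genes tested. All 9 passed the filter on low values, but Cd200 and Pdcd1lg2 passed it only through the normal MPs. Those genes had to be lower in APL cells to be tested at all, so their calls and the shares above are a description.

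**Figure D1:**
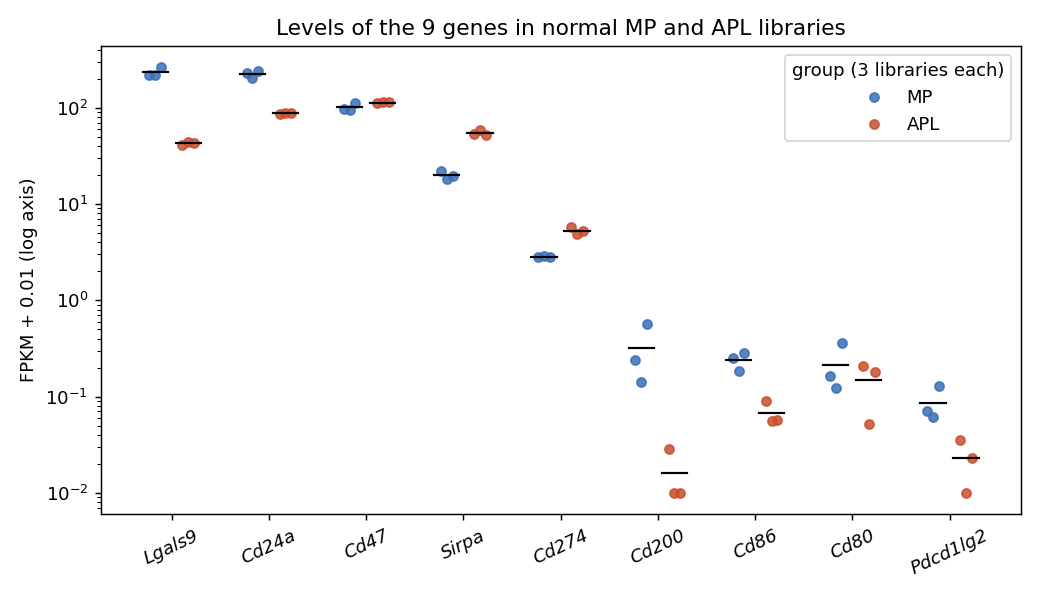
Levels of the 9 genes in FPKM + 0.01 on a log axis, ordered by their mean in normal MPs. Points are libraries (3 MP in blue, 3 APL in red) and black lines are group means. Lgals9, Cd24a, Cd47 and Sirpa lay far above the others in both groups, and points at 0.01 are libraries with 0 FPKM.

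The genes spanned a wide range of expression. In normal MPs the order of mean FPKM was Lgals9 (233 ± 26.5, SD, n = 3), Cd24a (224 ± 20.2), Cd47 (101 ± 8.84), Sirpa (19.99 ± 1.82) and Cd274 (2.82 ± 0.036). Below them came Cd200, Cd86, Cd80 and Pdcd1lg2, each under 1 FPKM in every library. The libraries of Lgals9 and Cd24a overlapped in that order, as did those of each neighbouring pair from Cd200 down. In c-Kit+ APL progenitors Cd47 came first (113 ± 1.98 FPKM), followed by Cd24a (87.3 ± 1.46), Sirpa (55.0 ± 3.60), Lgals9 (42.8 ± 1.76) and Cd274 (5.29 ± 0.49). No libraries overlapped between neighbours down to Cd80, whereas Cd80 and Cd86 overlapped and so did Pdcd1lg2 and Cd200. Cd47 was thus above 95.2% of genes tested in normal MPs and above 95.4% in APL cells, while Lgals9 went from above 98.2% to above 87.0%.

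The RefSeq promoter table (build GRCm38.p6) held 6 of the 9 genes, without Sirpa, Cd86 and Cd24a. From it 3 promoters are printed to show the sequence just upstream of genes that behaved differently: Cd274, which rose, Lgals9, which fell, and Cd47, which was not called. Each is the 250 bases before the start site, 5′ to 3′ on the strand of the gene, and capitals mark matches to the motifs named below. The Cd274 promoter is chr19:29367188-29367437 on the plus strand, that of Lgals9 is chr11:78984925-78985174 on the minus strand, and that of Cd47 is chr16:49855404-49855653 on the plus strand.
Cd274: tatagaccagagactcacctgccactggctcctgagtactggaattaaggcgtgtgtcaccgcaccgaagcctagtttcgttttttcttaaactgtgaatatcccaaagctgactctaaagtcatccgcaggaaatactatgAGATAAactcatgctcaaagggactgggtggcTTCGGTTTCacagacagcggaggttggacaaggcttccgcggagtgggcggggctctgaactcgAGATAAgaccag
Lgals9: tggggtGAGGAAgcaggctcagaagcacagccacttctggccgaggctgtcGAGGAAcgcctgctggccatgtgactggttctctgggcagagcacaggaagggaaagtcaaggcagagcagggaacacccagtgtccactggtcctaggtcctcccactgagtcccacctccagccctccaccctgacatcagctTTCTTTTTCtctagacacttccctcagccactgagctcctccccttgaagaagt
Cd47: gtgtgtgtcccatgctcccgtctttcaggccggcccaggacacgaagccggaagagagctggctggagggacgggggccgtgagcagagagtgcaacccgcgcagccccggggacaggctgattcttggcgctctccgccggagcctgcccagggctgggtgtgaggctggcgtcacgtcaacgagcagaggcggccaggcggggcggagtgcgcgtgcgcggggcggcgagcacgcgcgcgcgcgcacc

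The motifs were searched on both strands in windows of 300 bases, from 250 before to 50 after each start site. The core of the interferon-stimulated response element (ISRE), written GAAANNGAA, was in the windows of Cd274 and Lgals9 and in 8.56% of all 32851 windows of the table. In Cd274 it lay on the reverse strand from −76 to −68, and in Lgals9 on the reverse strand from −54 to −46 and again from 16 to 24 past the start, where it is not printed. The GATA motif AGATAA was in the windows of Cd274, Pdcd1lg2 and Cd200 and in 11.2% of all windows. The PU.1 core GAGGAA was in those of Lgals9, Pdcd1lg2 and Cd200 and in 28.3% of all windows. The interferon-gamma activated site TTCNNNGAA, the E-box CACGTG and the nuclear receptor half-site AGGTCA matched none of the 6 genes, and 8.3%, 7.15% and 16.3% of all windows. No match overlapped another. The Cd47 promoter held none of the motifs and was rich in G and C, at 73.2% of bases with 30 CpG sites, against medians of 52.4% and 6 over all windows. Cd274 had 50.4% and 11, and Lgals9 had 58.4% and 3. Such matches are letters in a window and do not show that a factor binds there.

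The do-not-eat-me ligand and its receptor were measured at high depth. Cd47 occupies positions 49855654 to 49911683 of chromosome 16 (GRCm38, as for all positions here). In scaled fragments, the MP libraries 1 to 3 held 4688, 4596 and 5329, and the APL libraries 1 to 3 held 5322, 5501 and 5600. MP library 3 reached the level of the APL libraries, so the groups overlapped. Cd47 differed by 0.17 on the log2 scale (SE 0.077), or 1.13-fold with a 95% confidence interval from 0.997-fold to 1.27-fold (adjusted p = 0.078 from limma). A fold change of 1.5 lay outside this interval. Without MP library 3 the log2 fold change was 0.24 with adjusted p = 0.0056, which passed the threshold on p but not that on the fold change. Scaling by median ratios also gave 0.23 with adjusted p = 0.0072, whereas scaling to the same total gave 0.040 with adjusted p = 0.57. Across all 17 settings the adjusted p of Cd47 lay between 0.0056 and 0.57.

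Sirpa, on chromosome 2 from 129592839 to 129632228, encodes the receptor through which myeloid cells read CD47. Scaled fragments were 2390, 1990 and 2159 for the MP libraries and 5824, 6527 and 5692 for the APL libraries, in the order 1 to 3 used throughout. Every APL library thus stood far above every MP library. Its increase was 1.47 on the log2 scale (SE 0.089), or 2.76-fold (95% confidence interval 2.40-fold to 3.18-fold, adjusted p = 1.1e-06 from limma). An exact permutation test of the 6 libraries (two-sided) gave p = 0.1, the smallest that 3 against 3 allow. Larger increases were found for 10.4% of the genes tested. Sirpb1a and Sirpb1b, paralogs of Sirpa whose fragments may be hard to assign, had far fewer fragments than Sirpa in both groups. Sirpb1a rose from 3.71 ± 1.08 to 21.1 ± 3.06 scaled fragments (2.25 on the log2 scale), and Sirpb1b had 1.36 ± 0.1005 and 7.90 ± 5.95 and was not called.

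Set against each other within a library, the ligand exceeded its receptor in both groups, but by less in APL cells. The FPKM of Cd47 was 4.43, 5.18 and 5.66 times that of Sirpa in MP libraries 1 to 3 and 2.08, 1.94 and 2.17 times in APL libraries 1 to 3. The groups did not overlap. The difference of the log2 ratios was −1.29 (exact permutation p = 0.1, two-sided, and 0.15 after adjustment over the 3 pairs compared). It does not depend on how libraries were scaled. In bulk RNA of sorted cells, fewer cells of a type and less RNA per cell cannot be told apart, which holds for every gene described here.

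Cd24a, on chromosome 10 from 43579169 to 43584265, encodes a small, heavily glycosylated surface protein found on erythroid, B lineage and immature myeloid cells. The MP libraries held 10264, 9238 and 10749 scaled fragments of it and the APL libraries 3855, 3996 and 4061. No library of either group came near the other group. On the log2 scale the difference was −1.34 (SE 0.078), so that MPs held 2.53-fold more (adjusted p = 8.1e-07 from limma). Its counter-receptor gene Siglecg was also lower, at 852 ± 126.5 scaled fragments in MPs and 163 ± 17.5 in APL cells (−2.38 on the log2 scale). Erythroid markers moved with Cd24a. All 9 erythroid markers tested of 10 listed were lower, and their summed level was between 1885 and 2443 FPKM in MP libraries and between 14.2 and 25.3 FPKM in APL libraries. B cell markers fell as well, with 4 of 5 tested lower and a sum between 19.8 and 28.5 FPKM against 1.48 to 2.40 FPKM. Nearly all of the MP sum came from Cd79b (12.99 FPKM) and Cd74 (11.1), and the Lin- gate is meant to remove mature B lineage cells. The part of either list in the decrease of Cd24a was not tested.

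**Figure D2:**
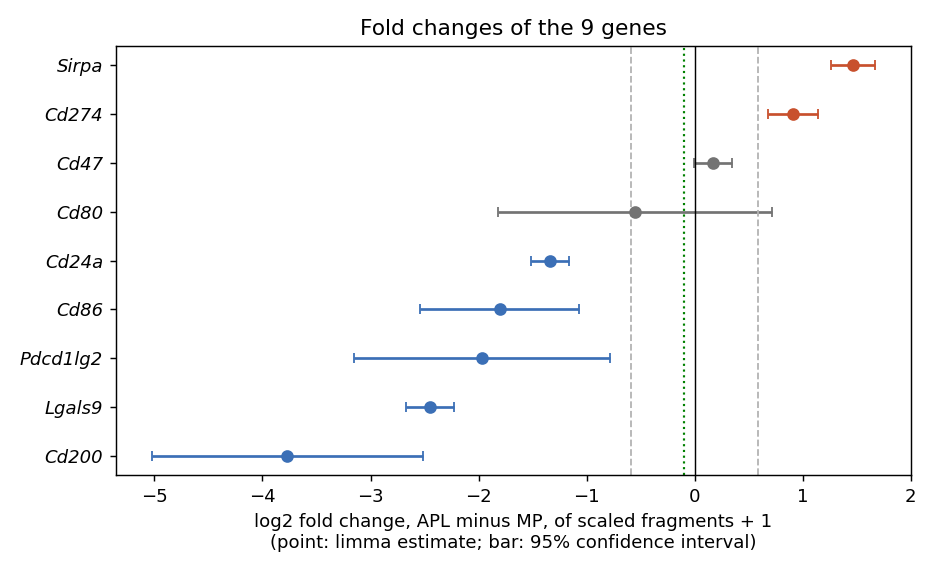
Log2 fold changes of the 9 genes between c-Kit+ APL progenitors and normal MPs (3 libraries each), with 95% confidence intervals from limma. Red genes were called higher, blue genes lower and grey genes not called. Dashed lines mark a fold change of 1.5 and the green dotted line the median of all genes tested (−0.10). The intervals of Cd47 and Cd80 include 0, that of Cd80 being the wider.

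Among the checkpoint ligands, Cd274 and Lgals9 were expressed and moved in opposite directions. Cd274 encodes PD-L1 and lies on chromosome 19 from 29367438 to 29388094. The MP libraries held 268, 270.4 and 264 scaled fragments, against 545, 459 and 508 for the APL libraries. The MP libraries differed little, and each APL library lay well above them. Cd274 rose by 0.91 on the log2 scale (SE 0.10), or 1.88-fold (95% confidence interval 1.597-fold to 2.20-fold, adjusted p = 5.5e-05 from limma). At a mean of 5.29 FPKM in APL cells it remained a gene of modest level, above 44.8% of genes tested. It was not called at a fold change threshold of 2.

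Lgals9, on chromosome 11 from 78962979 to 78984924, encodes galectin-9. It reached 8267, 8031 and 10154 scaled fragments across the MP libraries but 1519, 1659 and 1634 across the APL libraries. The lowest MP library thus held several times more than the highest APL library. The difference of −2.45 on the log2 scale (SE 0.097) corresponded to 5.47-fold more in MPs (adjusted p = 9.5e-08 from limma). Larger decreases were found for 8.80% of genes tested. From the highest mean FPKM of the 9 genes in normal MPs, Lgals9 came to the fourth in APL cells. Of 9 dendritic cell markers tested, 6 were lower, and the list summed to between 22.8 and 32.7 FPKM in MP libraries and to between 1.17 and 1.44 FPKM in APL libraries. Most of the MP sum came from Flt3 (17.7 FPKM), also a gene of progenitors, Zbtb46 (4.71) and H2-Ab1 (2.96), while Itgax and Cd209a were higher in every APL library than in any MP library but were not called. Their part in the change of Lgals9 was not tested. Havcr2, which encodes the galectin-9 receptor TIM3, had 13.4 ± 3.18 and 10.04 ± 5.64 scaled fragments in the groups and was not called.

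Pdcd1lg2, the neighbour of Cd274 on chromosome 19 (29410919 to 29472927), encodes PD-L2 and was close to absence. Fragments before scaling numbered 6, 5 and 12 for the MP libraries and 2, 0 and 1 for the APL libraries. No APL library exceeded 3 fragments, which was taken as not distinguishable from absence. Relative to total fragments the summed MP value was 7.29 times the summed APL value (exact 95% interval 2.20 to 37.9, for counting error only). The fitted log2 difference was −1.97 (SE 0.52), and −1.36 with quantile normalization, where it was not called. As Pdcd1lg2 was tested only because of its MP values, no p-value is given. The table's other genes within 200 kb of the Cd274 and Pdcd1lg2 loci were looked at after these values were known. Jak2, a kinase of interferon signalling, had 2748 ± 30.3 scaled fragments in MPs and 1745 ± 69.5 in APL cells (−0.66 on the log2 scale, called lower). Insl6 had 31.6 ± 15.6 and 0.289 ± 0.5005, whereas 5033414D02Rik, C030046E11Rik, Ermp1 and A930007I19Rik were not called. C030046E11Rik had 736 ± 60.9 scaled fragments in MPs and 1023 ± 42.0 in APL cells, a log2 difference of 0.48 (adjusted p = 0.0011, limma) that missed the threshold on the fold change alone. Ermp1 missed that threshold alone in the other direction, at 3248 ± 188 in MPs and 2165 ± 69.0 in APL cells (−0.584 on the log2 scale, adjusted p = 8.5e-05, limma).

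Cd200, on chromosome 16 from 45382135 to 45409053, encodes an inhibitory ligand of myeloid cells. The MP libraries held 16, 9 and 39 fragments of it before scaling, with library 3 the highest, whereas the APL libraries held 1, 0 and 0. The groups did not overlap. The summed MP value was 60.9 times the summed APL value relative to total fragments, with a wide exact 95% interval (10.5 to 2441, for counting error only). The fitted log2 difference was −3.77 (SE 0.55), and −3.25 without MP library 3. Its size depends on the pseudocount, since the APL libraries held almost no fragments. As Cd200 was tested only because of its MP values, no p-value is given. Of the CD200 receptor family, Cd200r1 rose from 86.4 ± 6.65 to 292 ± 7.70 scaled fragments (log2 fold change 1.75, adjusted p = 3.9e-06 from limma). Cd200r2, Cd200r3 and Cd200r4 were too low to be tested.

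The costimulators were barely detected in either group. Cd86, on chromosome 16 from 36603869 to 36666077, had 20, 14 and 23 fragments before scaling across the MP libraries, against 5, 4 and 3 across the APL libraries. Each MP library was above each APL library. This was a log2 difference of −1.80 (SE 0.32), with 3.49-fold more in MPs (adjusted p = 0.0010 from limma). Cd80 lies on the same chromosome from 38458933 to 38486932. There the MP libraries held 7, 5 and 16 fragments and the APL libraries 7, 2 and 6, and the groups overlapped. Its log2 difference was −0.55 (SE 0.56, adjusted p = 0.40 from limma). The 95% confidence interval, from −1.82 to 0.72, held changes of 1.5-fold in either direction, so no difference was detectable at this depth. The within-library log2 ratio of Cd80 to Cd86 differed by 0.71 between groups (exact permutation p = 0.2, two-sided, and 0.2 after adjustment over the 3 pairs). It was 1.21 and 0.14 with pseudocounts of 0.01 and 1 FPKM in place of 0.1, and 1.25 in scaled fragments. The ratio of Cd274 to Pdcd1lg2 is given only as values, because Pdcd1lg2 was near 0 in APL cells and the pseudocount set the difference, which was 1.51 on the log2 scale with 0.1 FPKM added, 2.93 with 0.01, 0.80 with 1 and 2.88 in scaled fragments.

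To place the 9 genes among their partners, 8 lists of related genes were counted, with 117 of 128 listed genes tested. Of these, 44 were higher in c-Kit+ APL progenitors, 27 were lower and 46 were not called, and their median log2 fold change was 0.25. These were 37.6% higher and 23.1% lower, beside 21.7% and 24.4% of all genes tested, which is the background for each list below. Some list genes, such as Pvrl3 and Gulp1 with 0 in every APL library, passed the filter only through 1 group, so the counts are a description. Among the partners of the 9 genes, 4 of 9 tested were higher and 2 lower (median log2 fold change 1.45). That list also held the Sirpa paralogs Sirpb1a, counted as higher, and Sirpb1b, not called. Pdcd1, which encodes PD-1, was at 9.89 ± 1.68 scaled fragments in MPs and 0.289 ± 0.5005 in APL cells. It is 1 of the 2 lower partners, and it passed the filter only through the MPs, which fixed its direction. Cd28 rose from 15.8 ± 3.75 to 59.2 ± 10.7. P4hb, a disulfide isomerase that also binds galectin-9, rose from 21880.5 ± 665 to 59679 ± 3635. Of other ligands of the B7, nectin and galectin families, 5 of 13 were higher and 5 lower (median 0.35). Icosl, the ligand of the costimulator ICOS, rose from 106 ± 0.389 to 518 ± 10.6 scaled fragments (log2 fold change 2.28). Lgals3, which encodes galectin-3, rose from 190.1 ± 49.98 to 1303 ± 93.3 (2.81). Cd48, a ligand of the receptor 2B4, had the largest decrease of all list genes, from 1774 ± 168 to 24.7 ± 4.42 (−6.12). TNF family costimulators were 2 higher and 2 lower of 4 tested (median −1.603), and Tnfsf14, which encodes LIGHT, rose from 213 ± 31.5 to 375 ± 42.6 (0.82). The lower genes were Tnfsf4 (20.9 ± 7.66 in MPs and 0 in APL cells) and Tnfsf9 (21.9 ± 10.2 and 0.411 ± 0.713). They passed the filter only through the MPs, so their calls and this median are a description. For Tnfsf4, at 0 in every APL library, this fixed the direction. With MP library 1, 2 or 3 left out, 1 gene was lower in place of 2 among the partners, and likewise among the TNF family. Pdcd1 and Tnfsf4 then had fewer than 3 libraries at the minimum and were not tested, so this drop comes from the filter.

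**Figure D3:**
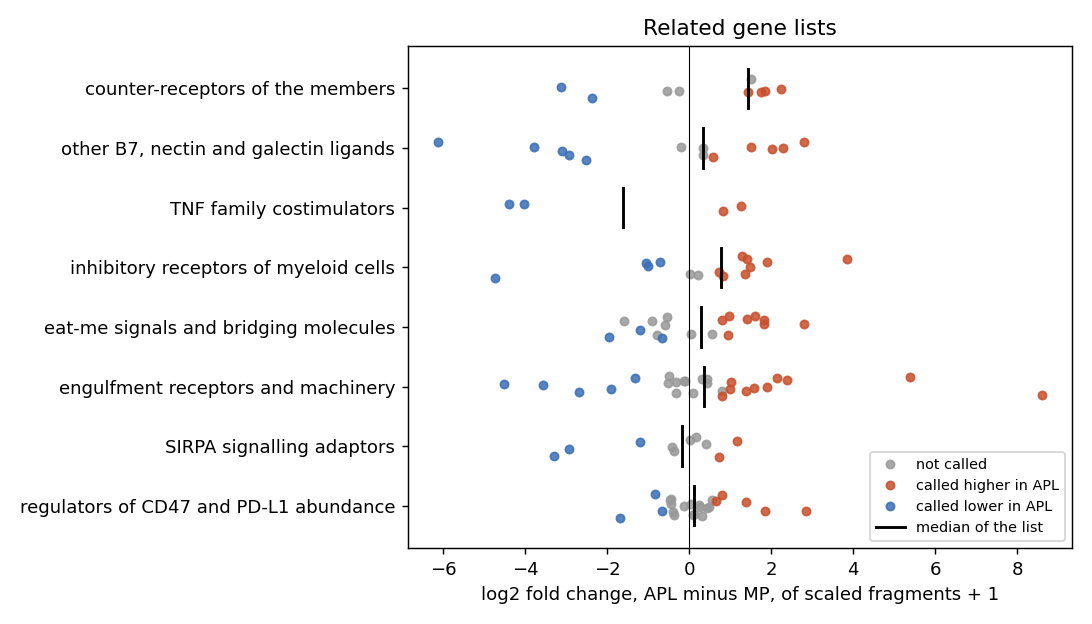
Log2 fold changes (APL minus MP, 3 libraries each) of the tested genes of 8 related lists. Each point is a gene, red where it was called higher, blue where it was called lower and grey where it was not called, and black bars are list medians. Each list held genes that rose and genes that fell, and its median lay between −1.603 and 1.45.

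Genes listed as inhibitory receptors of myeloid cells, many of which share with SIRPA the use of phosphatases, were 8 higher and 4 lower of 14 tested (median log2 fold change 0.77). The largest increase was that of Lilrb4, from 112 ± 15.5 to 1626 ± 107 scaled fragments (log2 fold change 3.85, adjusted p = 3.1e-08 from limma). Cd33, which encodes a sialic acid receptor of myeloid cells, rose from 218 ± 40.3 to 801 ± 50.8 (1.89), while Lair1, a receptor for collagen, fell from 774 ± 91.9 to 382 ± 19.2 (−1.01). Cd72 also fell (−4.74). The loci of Cd72, Lyn, Atp11a, Tnfsf9 and Gulp1 overlap those of other genes, so their values are less certain. Adaptors and kinases near SIRPA were 2 higher and 3 lower of 10 tested (median −0.17), shares near those of all genes. Ptpn6, which encodes the phosphatase SHP1 that SIRPA recruits, rose from 4291 ± 562 to 7030 ± 533 (0.72), and the kinase gene Lyn rose from 1623 ± 90.7 to 3618 ± 158 (1.16). The adaptor gene Fyb fell from 714 ± 98.2 to 93.0 ± 12.5 (−2.93). Ptpn11, which encodes SHP2, and Skap2 were not called. Without MP library 1 or without APL library 3, 2 of the inhibitory receptors were lower in place of 4.

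Signals that mark a cell for uptake were 8 higher and 3 lower of 18 tested (median 0.30). Calr, which encodes calreticulin, an endoplasmic reticulum chaperone that serves as an eat-me signal when it reaches the cell surface, had 46774 ± 1410.1 scaled fragments in MPs and 125230 ± 10425 in APL cells (log2 fold change 1.42). It lies on chromosome 8, whose median gene was at 0.48. Hspa5 and Pdia3, chaperones of the same compartment, rose as well (1.62 and 0.95). Anxa2 rose from 1076 ± 150.0 to 7513 ± 423 (2.81) and the flippase gene Atp11a, on chromosome 8, from 1212 ± 277 to 4266 ± 418 (1.84). Plscr1, a phospholipid scramblase, fell from 1846 ± 456 to 470 ± 34.6 (−1.95), and Mfge8, which bridges exposed phosphatidylserine to integrins, from 727 ± 228 to 444 ± 27.9 (−0.67). Engulfment receptors and machinery were 10 higher and 5 lower of 26 tested (median 0.37). Bai1, a receptor for phosphatidylserine, had at most 3 fragments before scaling in any MP library, 3 in all, and 1738 in all in the APL libraries, a ratio of 609 relative to total fragments (exact 95% interval 208 to 2957, for counting error only). It passed the filter only through the APL libraries, and it lies on chromosome 15, whose median gene was at 0.46. Itgb5 rose from 209 ± 45.4 to 912 ± 88.1 (2.14) and Itgb3 fell from 494 ± 82.5 to 130.5 ± 21.9 (−1.91), both integrin chains. List genes on chromosomes 8 and 15 numbered 6 and 5 of the 117 tested, of which 4 and 3 were higher. Without MP library 1, 6 of the uptake signals were lower in place of 3, and without MP library 3, 3 of the engulfment genes were lower in place of 5. Gulp1, an engulfment gene at 0 in every APL library, was not tested with an MP library left out.

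Among genes known to set the abundance of CD47 and PD-L1, 5 of 23 tested were higher, 3 were lower and 15 were not called (median log2 fold change 0.12). The share called higher, 21.7%, was that of all genes tested, and 65.2% were not called, against 53.9% of all genes. Qpctl, which encodes the enzyme that completes the SIRPA binding site of CD47, rose from 230.3 ± 41.6 to 396 ± 38.0 scaled fragments (0.79). Cmtm6, which protects PD-L1 from breakdown, was at 2082 ± 70.04 and 2583 ± 171 and was not called, whereas its relative Cmtm4, on chromosome 8, rose from 147 ± 35.1 to 520.5 ± 25.7 (1.84). Hif1a, a transcription factor of hypoxia, rose from 2012 ± 184 to 5253 ± 161 (1.39). Of the interferon pathway, Socs1, a feedback inhibitor, rose (2.85), while Irf1, which acts on the PD-L1 gene, fell from 1090 ± 147 to 611 ± 88.4 (−0.83) and Jak2 fell as given above. The transcription factor gene Myc was not called, nor were the receptor genes Ifngr1, Ifngr2, Ifnar1 and Ifnar2.

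Markers of cells that the sorts could hold were set beside these results. Neutrophil and promyelocyte markers summed to between 9089 and 11008 FPKM in MP libraries and between 23661 and 28220 FPKM in APL libraries, with 3 of 8 tested higher and 2 lower. Monocyte and macrophage markers, cells in which Sirpa is high, summed to between 28.8 and 36.1 FPKM and between 68.6 and 69.7 FPKM, with 5 of 8 higher and 3 lower. Cx3cr1 was among the lower ones, and Cd68 and Emr1 among the higher. Their part in the increase of Sirpa and Cd274 was not tested. Mast cell and basophil markers summed to between 83.4 and 110.7 FPKM and between 42.9 and 51.0 FPKM (1 higher and 4 lower of 6 tested). T cell markers summed to between 11.1 and 14.2 FPKM and between 4.597 and 5.66 FPKM (2 lower of 4 tested). Cd3e was at 0 in every MP library and Cd3g in every APL library. NK cell markers (1 lower of 4 tested) owed nearly all of their sum to Nkg7, and Gzma was at 0 in the MP libraries and Prf1 in the APL libraries. Stroma and endothelial markers summed to at most 4.43 FPKM in any library (2 higher and 4 lower of 7 tested). Of the genes of the sort itself, Kit was at 72.4 FPKM in MPs and 40.4 FPKM in APL cells, and Ly6a, which encodes Sca-1, at 1.36 and 2.18 FPKM.

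**Figure D4:**
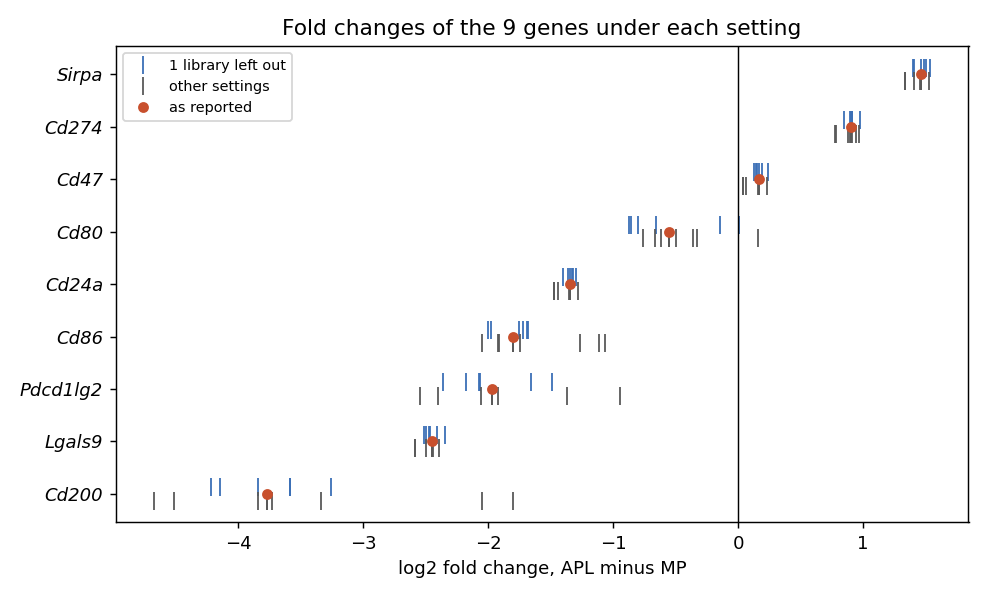
Log2 fold changes of the 9 genes (APL minus MP) under each processing setting. Red points are the reported values, blue ticks leave out 1 library and grey ticks change the filter, pseudocount, unit, scaling, weights or block. Sirpa, Cd274, Cd24a and Lgals9 varied little, while Cd200, Pdcd1lg2, Cd86 and Cd80, each under 50 fragments per library before scaling, spread widely and Cd80 crossed 0.

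Sirpa, Cd24a, Lgals9 and Cd86 were called in the same direction under every setting that gave them a value. Cd200 was also called lower in each such setting. In the reported setting, however, it passed the filter only through the normal MPs, so its calls are a description. The log2 fold change of Sirpa lay between 1.33 and 1.53, that of Cd24a between −1.47 and −1.28 and that of Lgals9 between −2.58 and −2.35. Cd274 lay between 0.78 and 0.97. The ranges of the rarely detected genes were wider, from −4.67 to −1.80 for Cd200, from −2.54 to −0.95 for Pdcd1lg2 and from −2.05 to −1.07 for Cd86.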

How the data were processed

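RNA sequencing of 3 normal MP and 3 c-Kit+ APL libraries was used as deposited. The authors' table gives FPKM values, and fragment values that are a signal: estimated fragments scaled by the authors with a factor of each library. The submitters' processing notes name CASAVA 1.8, TopHat2 2.0.6 and mm10, whereas the paper's methods name STAR, mm9, HTSeq-count and DESeq2. The program that made the table is not given in the sources used here. The most frequent smallest step of a library was taken as 1 fragment. Dividing by it gave whole numbers, within 0.02, for 85.3% to 87.9% of nonzero values, too few for a count test. Fragments before scaling are rounded to whole numbers and serve only to show depth. Table starts are counted from 0, so 1 was added to give coordinates on GRCm38 counted from 1. With that, 7057 of 16361 matched genes share their start with RefSeq, against 586 without it.

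Limma 3.58.1 in R 4.3.3 (lmFit, eBayes with a trend) was run on log2(scaled fragments + 1) for the 14595 genes with at least 1 scaled fragment in at least 3 of the 6 libraries. The added 1 shrinks differences of genes with few fragments. Ratios within libraries used log2(FPKM + 0.1) and exact permutation tests. On simulated data with 14696 genes tested, 96% of 100 genes with a log2 change of 1 in this comparison were recovered, with 1 false call. The changed genes were drawn above a minimum level that Cd80, Cd86, Cd200 and Pdcd1lg2 did not reach. The simulation also used a fixed spread, had no library that stood apart and changed far fewer genes than the 46.1% called here. Its rates therefore do not carry over to these data or to genes with few fragments. The members and lists were chosen with earlier results of these data known. From each related list, the 2 largest decreases and 2 largest increases were named among called genes without overlap and with a mean of at least 100 scaled fragments. Some genes that the rule or the lists hold are not reported here. Other list genes named (such as Calr, Pdcd1, Cd28, Cd72, Qpctl and Cmtm6) were chosen after their values were seen. Alternatives covered the filter, pseudocount, scaling, FPKM, voom weights, thresholds, a replicate block and each library left out. Intervals on fragments cover counting error only. Figures were drawn with matplotlib 3.10.9.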

Additional observations from a re-analysis of the deposited data

How the results depend on the processing

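Depth limits Cd80, Cd86, Cd200 and Pdcd1lg2, each under 50 fragments per library before scaling. With a minimum of 10 scaled fragments, 3 genes were called lower in place of 5, because Cd200 and Pdcd1lg2 were then not tested. At a fold change threshold of 2, 1 gene was called higher in place of 2, as Cd274 had 0.91 on the log2 scale. Quantile normalization took the call from Pdcd1lg2 (−1.36) and turned Cd80 to 0.16. With 1 library left out at a time, Cd80 ranged from −0.87 to 0.0097, the latter without APL library 2. The log2 ratio difference of Cd274 to Pdcd1lg2 was 2.93, 0.80 and 2.88 with pseudocounts of 0.01 and 1 FPKM and with scaled fragments, and that of Cd80 to Cd86 was 1.21, 0.14 and 1.25. Scaling to the same total and voom lowered the median of all genes from −0.10 to −0.23. A block on the replicate number gave 3164 higher and 3589 lower genes over the table, against 3167 and 3558, and 0.17 for Cd47. The deviations of same-numbered libraries correlated by 0.13, −0.0016 and 0.13 over 11061 genes, so the numbers were not taken to pair the samples. Of 288 counts of related lists under alternatives, 267 stayed within 1.5 times the reported count.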
